A study of Mus musculus with 18 samples.

Results

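Peaks of digested mouse liver RNA that lay opposite a peak on the other strand of the same library were collected, since RNA from both strands of a locus can anneal into double-stranded RNA. The members were chosen by position and strand alone: a peak of a library treated with RNase, with or without MDA5, was taken when it overlapped a peak on the opposite strand of that library by at least 10 bp. The rule found 4659 of the 41546 peaks of the 12 digested libraries, arranged in 2378 pairs at 1091 loci, out of 82353 peaks in all 18 libraries. Total liver RNA came from mice 8 to 9 days old that lacked Mavs (Mavs-/-, titled wild-type in the labels) or lacked both Adar and Mavs (Adar-/-; Mavs-/-), so that the control animals carried the Mavs deletion as well. For each genotype 3 libraries were made from RNA incubated with recombinant murine MDA5 without its CARDs and then digested with RNase A and T1 (MDA5-protected), 3 from RNA digested without the protein (RNase only) and 3 from undigested RNA (input).

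MDA5, encoded by Ifih1, is a cytoplasmic sensor that coats long double-stranded RNA, and its CARDs pass the signal on to MAVS. ADAR1, encoded by Adar, deaminates adenosines in double-stranded RNA, and loss of this editing allows cellular RNA to be sensed as foreign. RNase A and T1 cut single-stranded RNA, so a base-paired stretch or a stretch covered by protein is left over. Sense and antisense transcripts of 1 locus are a source of such duplexes, and mitochondrial DNA, which is transcribed nearly end to end on both strands, is a well known example.

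The sequences shown here come from loci on which the results turn. They are written 5′ to 3′ on the strand of the named gene. In exon 7 of Ifih1 (chr2:62610441-62610658, minus strand) the capitals mark the 202 bases that were paired in all 6 MDA5-protected libraries, and in exon 3 (chr2:62635056-62635202) they mark the 80 bases inside a sense peak of each of the 3 MDA5-protected libraries that had one there. In the coding sequence of Pdcd7 (chr9:65346458-65346563, plus strand) they mark the 50 bases paired in all 12 libraries. At the 3′ ends of mt-Nd5 and mt-Nd6 they mark the 14 bases that these 2 genes of opposite strands share. In the promoter windows of Tox3 (chr8:90348360-90348502, minus strand) and Qser1 (chr2:104816851-104816946, minus strand) they mark bases within the paired locus. The exonic sequences are those of GENCODE M21 transcripts and the promoter stretches are from RefSeq, GRCm38.p6.
Ifih1 exon 3: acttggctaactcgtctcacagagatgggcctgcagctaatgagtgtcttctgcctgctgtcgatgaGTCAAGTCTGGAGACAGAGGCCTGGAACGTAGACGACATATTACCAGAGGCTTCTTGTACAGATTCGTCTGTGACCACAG
Ifih1 exon 7: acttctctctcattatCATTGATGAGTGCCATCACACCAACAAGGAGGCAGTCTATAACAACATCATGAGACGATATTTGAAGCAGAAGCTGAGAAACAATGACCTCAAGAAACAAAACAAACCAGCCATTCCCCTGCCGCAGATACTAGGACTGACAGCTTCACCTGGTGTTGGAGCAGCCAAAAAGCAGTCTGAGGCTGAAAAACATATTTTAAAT
Pdcd7: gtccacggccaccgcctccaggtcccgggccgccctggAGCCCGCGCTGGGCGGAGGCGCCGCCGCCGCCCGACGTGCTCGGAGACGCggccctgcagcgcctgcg
mt-Nd5: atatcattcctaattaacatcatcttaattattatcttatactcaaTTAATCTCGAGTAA
mt-Nd6: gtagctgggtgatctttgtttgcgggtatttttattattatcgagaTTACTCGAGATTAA
Tox3: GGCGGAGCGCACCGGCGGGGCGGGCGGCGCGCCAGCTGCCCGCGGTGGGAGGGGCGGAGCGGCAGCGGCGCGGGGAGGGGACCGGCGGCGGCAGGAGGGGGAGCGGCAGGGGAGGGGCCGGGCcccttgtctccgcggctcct
Qser1: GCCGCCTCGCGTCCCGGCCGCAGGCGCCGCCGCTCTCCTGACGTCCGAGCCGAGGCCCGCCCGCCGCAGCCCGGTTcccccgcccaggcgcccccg

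The peak lists used here carry areas and not reads. The number of reads behind a pair cannot be taken from them, and a locus without a pair may have held too few reads to be called. The libraries held 1180 to 2868 peaks after MDA5 protection and 3150 to 6094 after RNase alone. All 7 hepatocyte markers looked at, Alb and Apoa1 among them, had a peak in all 6 input libraries, as did 4 of 7 erythroid and 5 of 6 Kupffer cell markers, while 1 of 5 endothelial, 0 of 4 stellate cell and 0 of 4 cholangiocyte markers did. Peaks on the strand of Adar occurred in 3 libraries labelled Adar-/-; Mavs-/- and in no library labelled Mavs-/-, and none lay over Mavs. The labels do not give the deleted part of either gene, so these peaks check neither genotype. Of the digested libraries 3 stood apart in where their pairs lay. RNase only Mavs-/- replicate 1 alone among the RNase only libraries had pairs over Ifih1, RNase only Mavs-/- replicate 3 had 71 pairs at promoters against 3 to 9 in the other RNase only libraries, and RNase only Adar-/-; Mavs-/- replicate 1 had 665 pairs, more than any other library. Of the 1091 loci, 649 were seen in a single library, and 339 of these were in the last of the 3 libraries and 174 in RNase only Mavs-/- replicate 3. Leaving out these 3 libraries left 1122 pairs at 501 loci, of which 267 recurred in at least 2 libraries against 442 with all 12 libraries.

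A larger share of peaks was paired in every digested library than in any input library. In MDA5-protected Mavs-/- RNA 6.78%, 8.69% and 12.0% of the peaks of replicates 1, 2 and 3 were paired, a mean of 9.17% ± 2.66 (SD, n = 3). In MDA5-protected Adar-/-; Mavs-/- RNA the shares were 8.56%, 5.13% and 4.39%, a mean of 6.03% ± 2.22 (SD, n = 3). The ranges of the genotypes overlapped, and the difference of -3.14 percentage points gave p = 0.20 (exact permutation test, two-sided, adjusted p = 0.40 over 4 comparisons, smallest possible p = 0.10). In RNase only libraries the shares were 9.85%, 5.20% and 19.2% for Mavs-/- (11.4% ± 7.13, SD, n = 3) and 22.7%, 11.5% and 9.06% for Adar-/-; Mavs-/- (14.4% ± 7.31, SD, n = 3). The spread between replicates was larger than the difference of 3.01 percentage points (exact permutation p = 0.60), and the sign of that difference turned to -1.15 without RNase only Adar-/-; Mavs-/- replicate 1 and to -0.10 without RNase only Mavs-/- replicate 2.

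Input libraries held pairs too, in 1.03% to 2.91% of their peaks, below the lowest digested library at 4.39%. The digested libraries were called against the input of their genotype, and whether this moved the shares was not tested. Within Adar-/-; Mavs-/- every RNase only library exceeded every MDA5-protected library in paired share, with a mean difference of -8.40 percentage points for MDA5-protected minus RNase only (exact permutation p = 0.10, the smallest 3 against 3 libraries can give, adjusted p = 0.40). Within Mavs-/- the fractions overlapped (difference of -2.25 points for MDA5-protected minus RNase only, exact permutation p = 0.80). Exact binomial 95% intervals of the single shares, which cover counting error only, are drawn in the plot of paired shares.

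**Figure D1:**
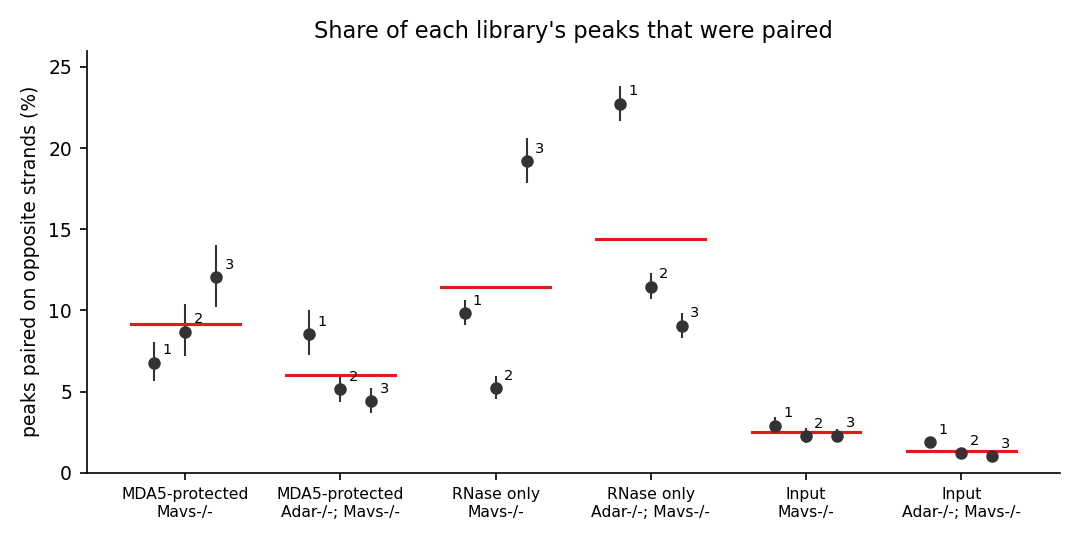
Share of peaks paired on opposite strands (vertical axis, percent) in each of the 18 libraries, by fraction and genotype. Points are libraries with their replicate number, thin bars exact 95% binomial intervals and red lines the means of 3. Every digested library lies above 4%, every input library below 3%.

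The stretch shared by the partners of a pair ranged from 10 to 1232 bp. Its median was 125, 102.5 and 92 bp in the MDA5-protected Mavs-/- libraries and 180.5, 132.5 and 130.5 bp in the MDA5-protected Adar-/-; Mavs-/- libraries. The genotypes did not overlap, and pairs were longer by 41.3 bp in the absence of Adar (exact permutation p = 0.10, the smallest possible, adjusted p = 0.40). The difference was 32.5 bp without the mitochondrial and Ifih1 peaks. It was 34 bp with at least 50 bp of overlap (exact permutation p = 0.30) and 15.2 bp with a minimum area of 1000 (exact permutation p = 0.80), and in both settings the separation of the genotypes was lost. In RNase only libraries the medians were 121, 127 and 159 bp for Mavs-/- and 140, 132 and 143 bp for Adar-/-; Mavs-/-, which overlapped (2.67 bp, exact permutation p = 0.90). The fixed limit of 10 bp decided few members, since 6 opposite-strand overlaps of 1 to 9 bp fell outside it and 7 of 10 to 19 bp inside. Whole paired peaks had median lengths of 165, 131.5 and 117 bp in MDA5-protected Mavs-/- and 209.5, 185 and 169.5 bp in MDA5-protected Adar-/-; Mavs-/- libraries. For unpaired peaks these were 220, 144 and 131 bp and 193, 195 and 185 bp. The part of peak length in the genotype difference was not tested.

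The pairs fell into groups by what the annotation held at the locus. Loci on the mitochondrial chromosome numbered 21, loci over Ifih1 16, other loci touching a RefSeq promoter window (250 bases before to 50 after a gene start) 87, loci over other exons 159, loci in introns 555 and loci outside annotated genes 253. In the MDA5-protected fraction mitochondrial loci gave 90 (22.3%) and Ifih1 42 (10.4%) of 403 pairs, with 13 to 17 mitochondrial and 5 to 10 Ifih1 pairs in each library. In the RNase only fraction introns held 1165 of 1975 pairs (59.0%) and 46 to 444 in a library. Of the loci, 123 were paired in both fractions, 38 in MDA5-protected libraries alone and 930 in RNase only libraries alone.

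**Figure D2:**
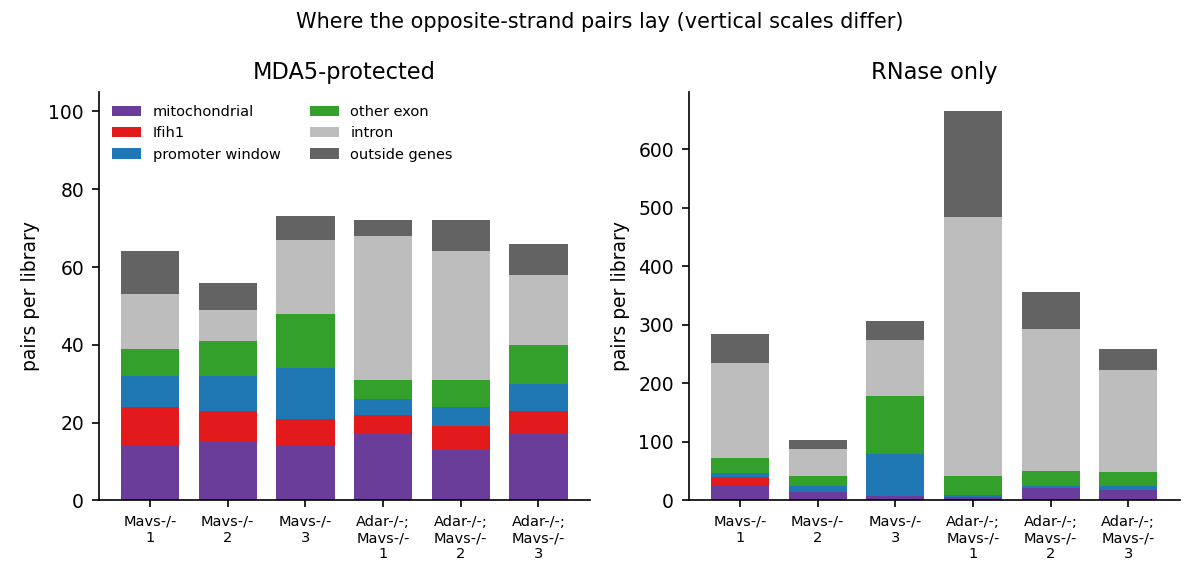
Number of opposite-strand pairs in each digested library (vertical axes, on different scales for the fractions), stacked by what lay at the locus. Mitochondrial and Ifih1 pairs were present in all 6 MDA5-protected libraries, introns were the largest class in 5 of 6 RNase only libraries, and RNase only Mavs-/- replicate 3 had 71 promoter pairs and 99 other exonic pairs.

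Mitochondrial RNA gave the longest pairs, and its loci were among the most recurrent. Of the 6 loci paired in all 12 libraries, those of Mpped1, Pdcd7 and Prdm16 were nuclear. Mitochondrial loci are merged overlaps of up to 1527 bp, so their pairs need not cover the same bases in every library. Pairs covered 2495 to 6647 bases of the mitochondrial chromosome in the MDA5-protected libraries (median 4850) and 1082 to 7116 in the RNase only libraries (median 5461). The longest single overlap in each of the 4 groups was mitochondrial. It measured 1232 bp in MDA5-protected Mavs-/- replicate 1, 1036 bp in MDA5-protected Adar-/-; Mavs-/- replicate 2 and 1142 bp in RNase only Mavs-/- replicate 1, all 3 over the ends of mt-Nd5 and mt-Nd6. In RNase only Adar-/-; Mavs-/- replicate 3 it measured 752 bp, over mt-Nd4.

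Both mt-Nd5 and mt-Nd6, which encode subunits of respiratory complex I on opposite strands, were touched by a pair in 12 of 12 libraries. This was the mitochondrial locus where annotated messenger RNAs of both strands converge, and their last bases overlap as printed above (mt-Nd5 ends at position 13565 and mt-Nd6 at 13552). The paired bases of the locus at positions 12910 to 14153 numbered 1232, 902 and 685 in MDA5-protected Mavs-/- and 846, 1036 and 882 in MDA5-protected Adar-/-; Mavs-/- libraries. They numbered 1142, 964 and 698 in RNase only Mavs-/- and 521, 997 and 1157 in RNase only Adar-/-; Mavs-/- libraries, so no group stood apart. The plus strand, that of mt-Nd5, took 62.5% to 69.8% of the peak area in the MDA5-protected libraries and 27.0% to 59.9% in the RNase only libraries. The ranges did not overlap, and this contrast was chosen after its values were seen.

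Elsewhere on the mitochondrial chromosome the minus strand carries annotated tRNA genes and no messenger RNA. A locus spanning mt-Ta, mt-Tn, mt-Tc and mt-Ty, tRNA genes of the minus strand with no gene opposite, was paired in 9 libraries. Pairs touched mt-Ta and mt-Tn in 8 libraries each and mt-Tc and mt-Ty in 5 each. A locus over mt-Co1 that reached the tRNA gene mt-Ts1 of the other strand was paired in 7 libraries. Pairs touched mt-Ts1 itself in 2. The other recurrent loci lay over genes of the plus strand alone. mt-Atp6 and mt-Atp8, subunits of ATP synthase, were paired in 12 of 12 libraries, and mt-Co3, a subunit of cytochrome c oxidase, mt-Nd3 and mt-Nd2 in 11. A median of 64.3% of mt-Atp6, 82.0% of mt-Nd3 and 89.8% of mt-Nd6 was paired. The ribosomal RNA mt-Rnr1 had no pair and mt-Rnr2 had pairs in 4 libraries. Regions marked as ribosomal RNA repeats had been masked by the authors, and the part of that in these 2 genes was not tested. mt-Cytb was paired in 4 libraries, all RNase only. Input RNA was paired over far more of the chromosome, 10982 to 13755 bases, with the minus strand at 16.8% to 23.3% of the area. In the digested libraries the minus strand took 21.7% to 44.9% after MDA5 protection and 10.7% to 59.1% after RNase alone. RNase only Adar-/-; Mavs-/- replicate 1 gave the lowest of these values and 5 mitochondrial pairs against 8 to 24 in the other RNase only libraries.

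Ifih1, the gene of MDA5 itself (ENSMUSG00000026896.14, chr2:62595798-62646255, minus strand, 16 exons), held pairs in every MDA5-protected library. There were 10, 8 and 7 pairs in the Mavs-/- replicates and 5, 6 and 6 in the Adar-/-; Mavs-/- replicates. In the RNase only fraction Mavs-/- replicate 1 held 16 pairs and the other 5 libraries none. No input library had a peak of either strand over any exon of Ifih1. Only exon 16 entered by the rule for named loci, and the other exons are described because their values were seen.

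The Ifih1 pairs followed the spliced coding sequence. Of the 230 ends of paired Ifih1 peaks in the 7 libraries, 180 lay within 10 bp of an exon border, 75% to 82.5% in a library. Among paired peaks over other nuclear exons and promoters 10.5% of ends lay that near to a border of any exon. Exons 5, 6, 7 and 14 were paired in 6 of 6 MDA5-protected libraries, exons 10 and 13 in 5, exons 15 and 16 in the 3 Mavs-/- libraries, and exons 8 and 9 had sense peaks in all 6 without an antisense partner. Sense peaks of the MDA5-protected libraries began in exon 3 or 4. The first residue they covered was 257 in 3 libraries, 230 in MDA5-protected Mavs-/- replicate 2 and MDA5-protected Adar-/-; Mavs-/- replicate 1, and 216 in MDA5-protected Adar-/-; Mavs-/- replicate 3, and the last was residue 1025, the end of the protein, in all 6. Exons 1 and 2, which encode residues 1 to 208, had no peak in any of them. At the other end the sense peaks ran 6 to 33 bases past the last codon, while 2111 bases of 3′ UTR follow the stop codon.

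In RNase only Mavs-/- replicate 1 the antisense peaks covered 100% of the coding bases, from residue 1 to 1025. They began 3 bases before the start codon and ended 6 bases after the last residue's codon. The sense strand took 46.0% of the paired area there. In the MDA5-protected libraries it took 71.3%, 73.2% and 71.7% in Mavs-/- and 76.7%, 80.9% and 73.6% in Adar-/-; Mavs-/-, so the antisense strand was the weaker in all 6. The added protein was expressed in bacteria from a murine cDNA clone without the CARDs, which are encoded at the start of the gene. In the MDA5-protected libraries the sense peaks began at residue 216, 230 or 257. These lie on both sides of the first residue of that clone, and none began exactly there. RNase only Mavs-/- replicate 1 had no protein added, and its peaks of both strands began at residue 1, within the part that the clone lacks. The part of nucleic acid from any clone in the pairs of either fraction was not tested. The other 5 RNase only libraries had 0 to 5 sense peaks and no antisense peak over the gene. With RNase only Mavs-/- replicate 1 left out, 2094 pairs at 1024 loci remained, 10 of them over Ifih1.

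**Figure D3:**
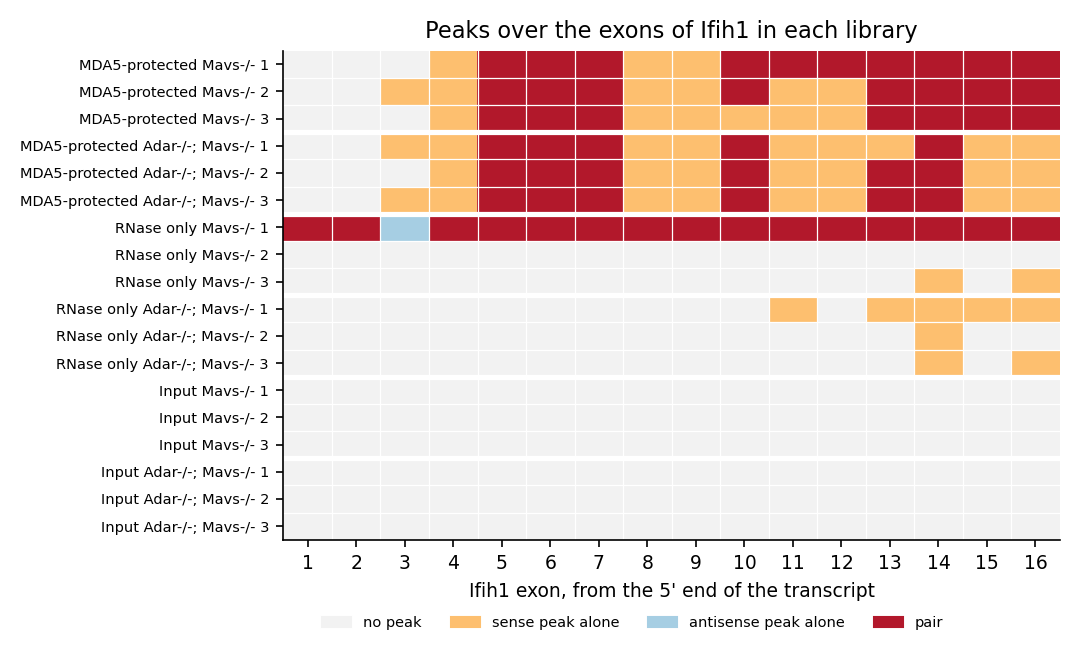
Peaks over the 16 exons of Ifih1 (horizontal axis, from the 5′ end) in each of the 18 libraries (rows), where dark red marks an opposite-strand pair, orange a sense peak alone, blue an antisense peak alone. Pairs begin at exon 5 in the 6 MDA5-protected libraries, reach exon 1 in RNase only Mavs-/- replicate 1 alone, and the 6 input rows are empty.

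Of the other genes of editing and double-stranded RNA sensing that were looked at, Adarb1, which encodes the second editing enzyme ADAR2, had a pair in RNase only Adar-/-; Mavs-/- replicate 1. Adar, Mavs, Eif2ak2 (the kinase PKR), Zbp1, Dhx58 and Oas1a had none. Rnf168, Knl1 and Zkscan3, whose structured RNAs the study cloned, had digested peaks in 3, 7 and 3 libraries and no pair. None of 9 structural and long noncoding RNAs, Malat1 and Neat1 among them, had any digested peak on its strand, and none had a pair. Of 52 secreted protein and enzyme genes of hepatocytes 51 had an input peak, 13 of these a digested peak (25.5%) and 5 a digested pair (9.80%). Of all 5531 genes with an input peak 42.1% had a digested peak and 5.13% a digested pair. The 5 hepatocyte genes were Gc, the vitamin D binding protein, in 8 libraries, Ahsg and Ass1 in 2, and Cp and Itih2 in 1.

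Loci at promoters were rich in G and C. The 108 RefSeq windows touched by a paired peak had a median GC content of 78.2% and a median of 44.5 CpG dinucleotides, against 75% and 39 for 486 windows touched by other digested peaks alone and 52.7% and 7 for all 32851 windows. Windows met by paired peaks had the higher median GC content in 12 of 12 libraries, 77.7% to 86.0% against 67.0% to 76.7% for windows met by unpaired peaks. These medians rest on 88 paired windows in RNase only Mavs-/- replicate 3 and on 4 to 15 in every other library. The libraries are not independent counts, since the same windows recur. Those of Mpped1 (89.3% G and C), Tox3 (85.3%) and Kif13a (86.7%) were paired in 12, 10 and 9 libraries. The letters GGGCGG, on either strand, were in 90 of 96 windows met by a paired locus (93.8%) and in 35.7% of all windows. They were not counted in the windows touched by other digested peaks alone, which were also rich in G and C. Whether they set paired windows apart from those was therefore not tested. Both printed promoter stretches have this base composition, with 85.3% (Tox3) and 85.4% (Qser1) G and C.

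**Figure D4:**
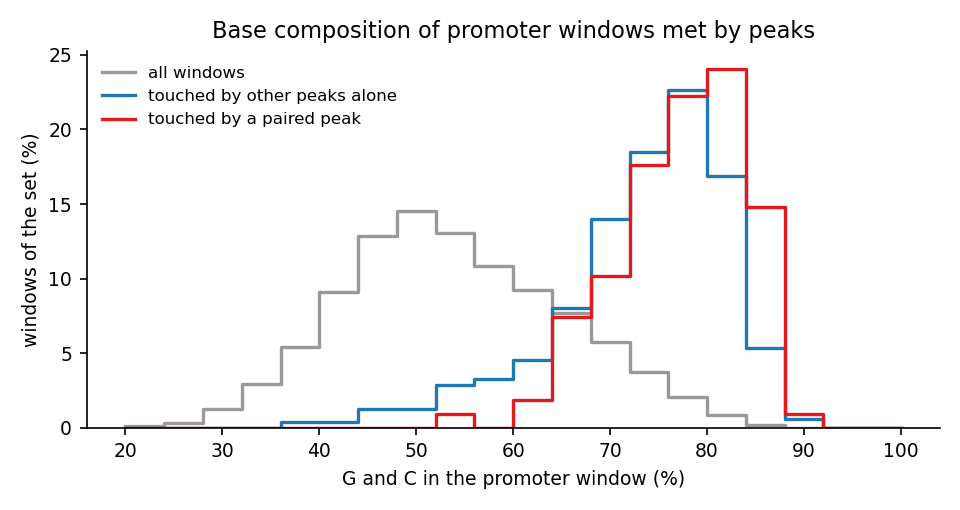
GC content of promoter windows (horizontal axis, percent) for all RefSeq windows (grey), windows touched by unpaired digested peaks alone (blue) and windows touched by a paired peak (red), as the share of each set per 4-point bin. The red and blue curves lie to the right of the grey one, with medians of 78.2% and 75% against 52.7%.

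Mpped1, Tox3 and Kif13a were the promoters most often paired. The locus in the 5′ UTR of Mpped1, a metallophosphoesterase gene (chr15:83780020-83780216), was paired in 12 of 12 libraries, but unequally: the minus, antisense strand took 0.56% to 25.7% of the area (median 6.93%). The Tox3 locus (chr8:90348380-90348576), before the start of a gene for an HMG-box protein, was paired in 10 libraries and that of Kif13a, a kinesin gene, in 9. Rxra, which encodes a nuclear receptor, was paired in 5 of 6 MDA5-protected libraries and 1 RNase only library. Promoter pairs numbered 8, 9 and 13 in the MDA5-protected Mavs-/- and 4, 5 and 7 in the MDA5-protected Adar-/-; Mavs-/- libraries, which did not overlap. This was not among the comparisons set for testing. Without RNase only Mavs-/- replicate 3 the promoter loci fell from 87 to 29.

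Among other exons the coding stretch of Pdcd7, a component of the minor spliceosome, was paired in 12 of 12 libraries. Its overlap was 79, 95 and 83 bp in MDA5-protected Mavs-/-, 73, 77 and 78 bp in MDA5-protected Adar-/-; Mavs-/-, 61, 95 and 101 bp in RNase only Mavs-/- and 65, 52 and 67 bp in RNase only Adar-/-; Mavs-/- libraries. The plus, sense strand took 38.6% to 70.9% of the area. The printed stretch holds 83.0% G and C, as the promoters do. Genes with annotated exons on both strands of the locus were rare, 13 of 1070 nuclear loci (1.21%), and 8 of the 13 were seen in RNase only Mavs-/- replicate 3 alone.

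The most recurrent of these annotated sense-antisense loci were Chka, for choline kinase, opposite AC133523.2 (chr19:3867542-3867720, 5 libraries), Kcnmb4, for a potassium channel subunit, opposite Kcnmb4os2 (chr10:116473712-116474005, 3 libraries) and Yes1, for a SRC-family kinase, opposite Gm10461 (chr5:32611442-32611497, 3 libraries). The Yes1 pair was in all 3 MDA5-protected Mavs-/- libraries, with 56, 39 and 50 paired bp, and no other digested library had a peak on either strand there. Borcs6 opposite 9330160F10Rik was paired in 2 libraries, and Dnaaf5 opposite Gm15672 and Gm10524 opposite Zfp236 in RNase only Mavs-/- replicate 3. Across nuclear loci 741 (69.3%) had an annotated gene on 1 strand, 59 (5.51%) on both and 270 (25.2%) on neither.

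In introns and between genes the pairs were mostly found after RNase alone, and their strands were nearly even, as in the other nuclear groups of that fraction. The ratio of the smaller to the larger peak area had a median of 0.829 in introns and 0.803 outside genes in the RNase only fraction, with 0.789 in other exons, 0.738 at promoters and 0.898 over Ifih1, against 0.271 for mitochondrial pairs. Each peak had to reach an area of 500 to be called, which limits how unequal a pair of small peaks can be. The part of this in the ratios was not tested. The intronic partners shared 84.4% of the longer peak at the median, and 45.8% of their ends lay within 10 bp of each other. Where a gene lay on 1 strand only, the sense peak was the larger in 447 of 1098 intronic pairs of the RNase only fraction, with a median sense share of 47.7% to 49.4% of the area in every library. In the MDA5-protected fraction the sense peak was the larger in 72 of 117. The RNA had been treated with DNase I before the digestion, and the part of genomic DNA in these even pairs was not tested. Of paired intronic peaks 1.61% (RNase only) and 13.0% (MDA5-protected) met an input peak of their strand, against 97.2% and 96.2% of paired mitochondrial peaks. Low shares were not particular to paired peaks, since 0.909% and 2.10% of unpaired intronic peaks met one. Of unpaired mitochondrial peaks 96.1% and 97.9% did.

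**Figure D5:**
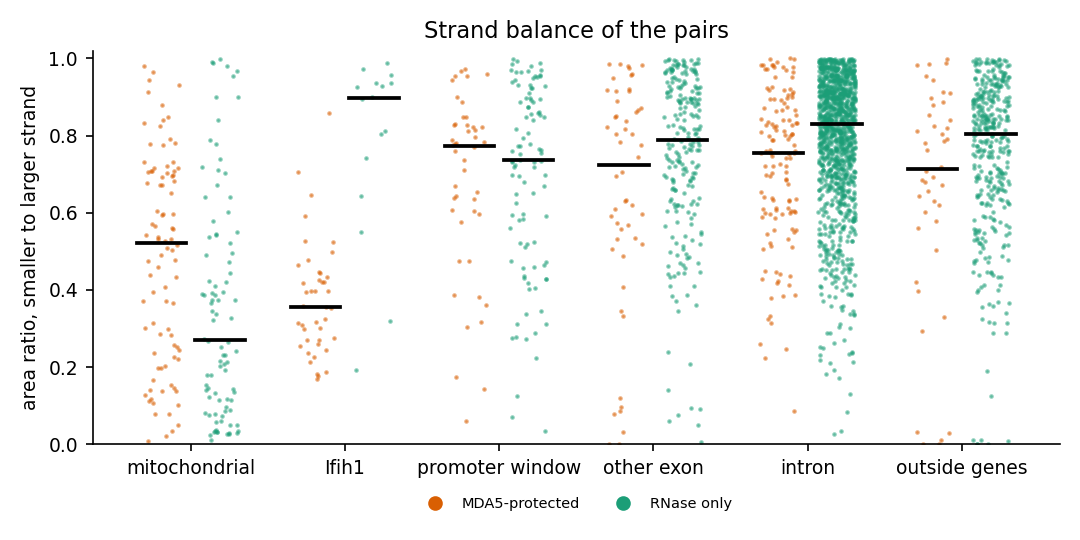
Ratio of the smaller to the larger peak area of each pair (vertical axis, where 1 means equal strands) by kind of locus, for MDA5-protected (orange) and RNase only (green) libraries. Black lines are medians over pairs. Mitochondrial pairs were the most unequal in the RNase only fraction, and Ifih1 pairs were unequal in the MDA5-protected libraries and nearly equal in the 1 RNase only library that had them.

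An intronic locus of Prdm16, for a transcription factor of brown fat cells (chr4:154636095-154636194), was paired in 12 of 12 libraries over 75 to 100 bp, and the antisense strand took a median of 71.0% of the area. Ptprm, for a receptor tyrosine phosphatase, was paired in 11 libraries (chr17:67290517-67290620), with 46.4% of the area on the antisense strand. The stretch at chr1:5170576-5170673, outside any gene of the annotation, was also paired in 11 libraries, but nearly all of its area was on the minus strand. Its plus strand took 3.12%, 0.98% and 2.86% of the area in MDA5-protected Mavs-/- and 1.18%, 0.76% and 1.18% in RNase only Mavs-/- libraries. In the 5 Adar-/-; Mavs-/- libraries with a pair it took 0.046% to 0.12%, below all 6 Mavs-/- libraries. This difference was chosen after its values were seen.

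Further intronic loci recurred across both genotypes after RNase alone. Dpyd, for the enzyme that degrades pyrimidines, held a locus of 501 bp (chr3:119085541-119086041) paired in all 6 RNase only and 4 MDA5-protected libraries. Introns of Hsd17b11, Megf9, Samd4 and Abcc2, the last a bile canalicular transporter, were paired in all 6 RNase only libraries and 2 MDA5-protected Adar-/-; Mavs-/- libraries each. Abcc2 is a hepatocyte gene, as is Gc, whose intronic locus of 225 bp was paired in 8 libraries. Stab2, an endothelial marker, held 3 intronic loci, the most recurrent of them paired in 5 libraries. Which cells the intronic pairs came from was not tested. In total 547 genes had an intronic locus, 46 of them more than 1, and 25 intronic loci were paired in all 6 RNase only libraries. RNase only Adar-/-; Mavs-/- replicate 1 alone held 204 of the 555 intronic loci.

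Between genotypes, pairs present in 3 of 3 libraries of 1 genotype and 0 of 3 of the other were counted at all loci. In the MDA5-protected fraction 9 of 161 loci were paired in Mavs-/- alone and 0 in Adar-/-; Mavs-/- alone. For comparison, regions with a peak of any kind, paired or not, were present in 3 of 3 and absent in 3 of 3 libraries in 0.592% (Mavs-/- alone) and 3.05% (Adar-/-; Mavs-/- alone) of 4564 merged regions. Of the 9 loci 8 kept a peak on a strand in at least 1 library of the other genotype, though not in every one. Tnfrsf11a had no peak on either strand in 2 of the 3 MDA5-protected Adar-/-; Mavs-/- libraries, Chd7 in 1 and Yes1 in all 3. The same count of peak presence over the 153 regions that held a pair was 0.654% and 5.88%. These regions were picked through the pairs themselves, so the shares only describe them.

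In the RNase only fraction 3 of 1053 loci were paired in Mavs-/- alone and 43 in Adar-/-; Mavs-/- alone, against 0.274% and 1.52% of 12772 merged regions by peak presence. Of the 43 loci 28 were intronic and 12 outside genes, and 23 had no peak on either strand in any RNase only Mavs-/- library. By peak presence, 99 of 1021 regions that held a pair were found in Adar-/-; Mavs-/- alone (9.70%) and 1 in Mavs-/- alone (0.0979%). Among regions found in all 3 Adar-/-; Mavs-/- libraries 27.2% of those with a pair were absent from Mavs-/- against 15.3% of all. In the MDA5-protected fraction the order was the other way, 11.1% against 18.3%. Regions with a pair were picked through the pairs themselves. The RNase only Adar-/-; Mavs-/- libraries had 1319, 699 and 508 paired peaks, the Mavs-/- libraries 549, 199 and 605. The pick thus favours regions present in Adar-/-; Mavs-/-, so these shares cannot show a trait of paired regions. The RNase only Adar-/-; Mavs-/- libraries also held more peaks, 5605 to 6094 against 3150 to 5572, and the part of that in these counts was not tested.

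Among the loci paired in Mavs-/- alone, those of Chd7, a chromatin remodeller, and Atp1b3, a subunit of the sodium pump, were paired in all 6 digested Mavs-/- libraries and in none of the 6 digested Adar-/-; Mavs-/- libraries. At Atp1b3 (chr9:96364309-96364387, minus strand gene) the overlap was 79, 79 and 76 bp after MDA5 protection and 79, 77 and 74 bp after RNase alone. Its sense peak was called in all 12 libraries, and the antisense peak, with areas of 743 to 1270 where the smallest area kept by the authors is 500, in the 6 Mavs-/- libraries alone. At Chd7 (chr4:8691233-8691402, 5′ UTR, plus strand gene) 4 of the Adar-/-; Mavs-/- libraries kept the antisense peak and none the sense peak. The weaker peak of the Chd7 pairs had areas of 534 to 794, also close to the limit of 500. Samd5 was paired in 3 of 3 RNase only Mavs-/- libraries, where its antisense peak had areas of 637 to 979, and its sense peak was present in all 12 libraries.

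The other loci of this kind in the MDA5-protected fraction included Tnfrsf11a (the receptor RANK), Morc3, with 95, 90 and 95 paired bp, and exon 16 of Ifih1. At Morc3 the minus strand kept its peak in all 3 MDA5-protected Adar-/-; Mavs-/- libraries. The longest loci paired in all 3 Adar-/-; Mavs-/- and no Mavs-/- library of the RNase only fraction were 438 bp outside genes on chromosome 7 (chr7:30365621-30366058), 422 bp outside genes on chromosome 18, 417 bp in an intron of Dpysl3 and 299 bp in an intron of Ptprt (chr2:162646572-162646870). Their plus strand took 27.0% to 71.5% of the area.

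Within each library paired peaks were set against the unpaired peaks of that library. Paired peaks lay outside genes of their own strand in 51.7% ± 2.48 of cases against 32.3% ± 5.20 for unpaired peaks in the MDA5-protected fraction and in 56.1% ± 3.08 against 27.9% ± 7.39 in the RNase only fraction (SD, n = 6 libraries each). These shares are given without a test result, since 1 partner of every pair over a gene of 1 strand is antisense by the rule itself. Tests of these shares were still counted among the 8 tests of the adjustment. Their low p-values made the smaller of the other adjusted p-values lower than they would be without them. An input peak of the same strand met 29.1% ± 4.12 of paired and 5.23% ± 2.18 of unpaired MDA5-protected peaks (SD, n = 6, higher in 6 of 6, exact sign-flip permutation p = 0.031, the smallest possible, adjusted p = 0.0625 over 8 tests), a difference of 23.9 percentage points that shrank to 9.38 without mitochondrial and Ifih1 peaks. In the RNase only fraction the values were 8.81% ± 7.00 (SD) and 6.82% ± 1.03 (SD), higher in 4 of 6 libraries (exact permutation p = 0.59).

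Genes on both strands lay at 9.49% ± 3.77 of paired and 5.10% ± 0.51 of unpaired MDA5-protected peaks (SD, n = 6, higher in 6 of 6, exact permutation p = 0.031, adjusted p = 0.0625). With the middle base of each peak annotated in place of the whole peak this difference fell from 4.39 to 1.13 percentage points (exact permutation p = 0.69). In the RNase only fraction the shares were 6.47% ± 2.07 and 7.45% ± 0.92 (SD, n = 6, higher in 3 of 6, exact permutation p = 0.38). A paired peak was seen again in another library of its group in 82.7% ± 5.25 of cases against 68.3% ± 10.5 for unpaired peaks after MDA5 protection (SD, n = 6, higher in 5 of 6, exact permutation p = 0.0625, adjusted p = 0.10). After RNase alone the shares were 73.2% ± 22.1 and 60.2% ± 11.4 (SD, n = 6, higher in 5 of 6, exact permutation p = 0.094, adjusted p = 0.13). The exceptions were RNase only Mavs-/- replicate 3, at 44.96% of paired against 56.8% of unpaired peaks, and MDA5-protected Adar-/-; Mavs-/- replicate 1, at 77.1% against 77.3%. None of these tests passed 0.05 after adjustment.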

How the data were processed

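Per the labels and the study's methods, adapters were removed by the authors (Trim Galore 0.6.6), alignment used GRCm38, and peaks were called strand by strand in each library with Genrich 0.6.1 (adjusted P 0.01, minimum area 500, gap 20 bp) with input as control for the digested libraries, leaving out blacklisted and ribosomal RNA repeat regions. The deposited peak lists give the area under each peak as a signal, and its p-value and q-value as −log10. Areas were compared only between strands of a library.

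Opposite-strand peaks of a library were paired in Python 3.11.15 with numpy 2.4.6, annotated with GENCODE M21 and merged into loci where overlaps met or touched. Groups of 3 libraries were compared by exact permutation tests, and paired with unpaired peaks by exact sign-flip tests over the 6 libraries of a fraction, with Benjamini-Hochberg adjustment; p-values measure the spread between libraries. The pairing rule recovered 500 of 500 planted pairs on simulated peaks. Members and lists were chosen with earlier results of these data known. Named loci were the 10 paired in most libraries, the 2 longest overlaps of each group, up to 6 with exons on both strands, and up to 4 per fraction and direction found in 3 of 3 libraries of 1 genotype and 0 of 3 of the other. Presence of peaks over 15623 stranded regions, as deviations from group means, correlated between same-numbered MDA5-protected and RNase only libraries by 0.14, 0.086 and 0.14 in Mavs-/- and by 0.17, 0.11 and 0.15 in Adar-/-; Mavs-/-, and between genotypes by -0.083 to 0.014. Alternatives were other overlap limits, a larger minimum area, equal numbers of peaks, longer peaks, a replicate block and leaving out each library.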

Additional observations from a re-analysis of the deposited data

How the results depend on the processing

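Read numbers were not analysed here, so libraries were equalised only through the number or area of their peaks. With 3 libraries a group no comparison between groups could pass 0.05, so only directions are given. Of 233 recomputed values 215 kept their direction and their side of the adjusted threshold, which none had passed. This count is no measure of stability. It includes the replicate block, whose differences could not change, and counts of recurrent loci, which have no direction. The shares outside genes, partly set by the pairing rule, are in it too. A much smaller difference of the same sign was also counted as kept. The MDA5-protected difference for genes on both strands fell from 4.39 to 1.13 points with the middle base annotated. With an overlap of at least 50% of both peaks the genotype difference in overlap length after RNase alone was -2.67 bp and the input difference of RNase only peaks -1.74 points. With a minimum area of 1000 the Mavs-/- difference in paired share was 3.72 points, the RNase only genotype difference in length -7 bp, the difference for genes on both strands after RNase alone 2.31 points, and 123 loci recurred in place of 442. With equal numbers of peaks (1180 and 3150 a library) 275 loci recurred and the fraction difference in length within Adar-/-; Mavs-/- was -26.7 bp. Among peaks of at least the median length the RNase only difference for genes on both strands was 1.00 points. Without mitochondrial and Ifih1 peaks, a setting chosen after seeing the data, the Adar-/-; Mavs-/- difference in length was -19.3 bp and the input difference of RNase only peaks -2.61 points. The cause was not tested.

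Leaving out each library in turn moved the Mavs-/- difference in paired share between -5.36 and 1.64 points (positive without RNase only replicate 3), the RNase only genotype difference in share between -1.15 and 6.90 points, and that in length between -4.67 and 14.3 bp (negative without RNase only Mavs-/- replicate 1 or 2). The Adar-/-; Mavs-/- difference in length moved between -6.83 and 18.2 bp (negative without MDA5-protected replicate 1) and the input difference after RNase alone between -0.47 and 3.42 points (negative without RNase only Mavs-/- replicate 2). Recurrent loci numbered 327 to 442, fewest without RNase only Adar-/-; Mavs-/- replicate 1. The other results kept their direction, among them the MDA5-protected genotype differences in share (-4.41 to -1.71 points) and length (25 to 50.6 bp, but 15.2 bp with a minimum area of 1000) and the Adar-/-; Mavs-/- difference in share (-11.1 to -4.24 points). With a replicate block the differences are the same by construction (paired share -3.14, 3.01, -2.25 and -8.40 points), with exact sign-flip p of 0.50, 0.75, 0.75 and 0.25 over 3 pairs, and it changed no call. Same-numbered fractions correlated weakly in both genotypes (0.086 to 0.17), and same-numbered libraries of different genotypes correlated by -0.083 to 0.014.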

Other observations

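Of the 21 mitochondrial loci paired in digested RNA 19 met a pair of an input library, and of all 1091 loci 30 did, none of them over Ifih1. Hepatocyte genes that had no digested pair were paired in input RNA: Apoa1, an apolipoprotein of HDL, in 4 input libraries, Alb, the albumin gene, in 3, and Apoe in 2. The RNA components of RNase MRP and RNase P, Rmrp and Rpph1, were paired in 3 input libraries each, and the imprinted noncoding RNA H19 in 1. Input pairs outside mitochondria and Ifih1 numbered 14 to 37 in a library over exons away from promoters, against 6 to 15 in introns.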
